A study of Mus musculus with 8 samples.

Results

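The small nucleolar RNA (snoRNA) genes on the array were compared between CD4 single-positive (CD4SP) thymocytes of 4 WT and 4 Pggt1b_KO samples. A gene was taken where a probe set was annotated with exactly 1 symbol beginning with Snord or Snora and a number, and the brightest probe set over all 8 arrays stood for it. This gave 73 snoRNA genes among 22180 genes with 1 symbol, 47 of the box C/D class (Snord) and 26 of the box H/ACA class (Snora). Of 118 snoRNA probe sets on the array, 75 had 1 symbol and 43 had several. The latter were left out, and 16 of them belong to the Snord116 array.

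Box C/D snoRNAs guide methylation of the ribose of target bases, and box H/ACA snoRNAs guide the conversion of uridine to pseudouridine, mostly in ribosomal RNA. Most mammalian snoRNAs have no promoter of their own. They lie in introns of a host gene and are released when the spliced intron is debranched and trimmed. Some hosts encode ribosomal proteins or translation factors, while others, such as Gas5, Snhg1 and Snhg12, are noncoding RNA genes whose spliced RNA is known as a target of nonsense-mediated decay. The level of the snoRNA and that of the spliced host RNA are therefore separate quantities. In T cells, ribosome production rises when cells are activated and grow.

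All samples were CD4SP thymocytes sorted from the thymus of mice on the C57BL/6 background. The groups differed in the label for Pggt1b, the gene of the catalytic subunit of an enzyme that attaches geranylgeranyl lipids to proteins, and no treatment is named. The sources used here do not give the age of the mice, the part of Pggt1b that is deleted, any Cre that deletes it or whether mice were pooled. They also leave unsaid whether each sample is a mouse of its own. The p-values therefore reflect the scatter among these 8 samples, and that scatter may be technical.

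Pggt1b had log2 signals of 8.35, 8.38, 8.29 and 8.36 on the WT arrays and of 7.89, 7.57, 7.69 and 7.86 on the KO arrays, with no overlap (-0.59 ± 0.072 SE, n = 4 per genotype, limma, adjusted p = 0.00141). Correlations between arrays of 1 genotype lay between 0.990 and 0.995 across tested genes, which are not independent, and those between genotypes between 0.985 and 0.990. None of 7 tested CD4SP markers was called, and Cd4 had a mean log2 signal of 12.27 in WT and 12.26 in KO. Among the other cell types' markers, Cd8a fell by 0.74 (8.22 to 9.09 in KO, 9.28 to 9.79 in WT, adjusted p = 0.0354). The other CD8 lineage markers, Cd8b1 (-0.13, adjusted p = 0.279) and Runx3 (-0.20, adjusted p = 0.0822), were lower but not called. All 4 tested markers of double-positive thymocytes were lower in KO, and 0 were called. The heat-shock gene Hspa1a lay between 4.84 and 8.00 in WT and between 4.27 and 9.94 in KO, whose replicates 1 and 2 were highest (difference 1.67, adjusted p = 0.363). Of the same stress list, Jun rose (0.91, adjusted p = 0.0288) and Egr1 fell (-0.36, adjusted p = 0.00733). Of the 2 tested genes of the thymic epithelial and stromal list, Pecam1 rose (0.24, adjusted p = 0.0286). The other, Col1a1, was not called (-0.15, adjusted p = 0.272). The rest of that list had signals too low to be tested, with differences of -0.26 (Epcam), -0.14 (Pdgfra), 0.034 (Foxn1) and 0.055 (Psmb11). Mean log2 signals in WT and KO were 10.70 and 10.95 for Pecam1, and 5.41 and 5.15 for Epcam. The part of Cd8a, Pecam1, Jun and Egr1 in the snoRNA results was not tested, and that of Hspa1a and Hspa1b is given by the fits below. In bulk RNA, fewer cells of a type and less RNA per cell cannot be told apart.

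The start regions of the 4 host genes named for this comparison are shown because their transcripts carry the snoRNAs in their introns. Genes of the translation machinery and several snoRNA hosts are known to start their RNA with a C followed by a run of pyrimidines, the terminal oligopyrimidine tract. Each window runs from 60 bases before to 40 bases after the annotated start (RefSeq, GRCm38.p6). It is given 5′ to 3′ on the gene's own strand, which reads as the RNA does. Capitals mark a C followed by at least 4 further C or T bases without interruption, beginning within 10 bases of the start. Only the gene's own strand was searched, and the rule was chosen after the windows had been read.
Gas5, chr1:161035106-161035205, plus strand: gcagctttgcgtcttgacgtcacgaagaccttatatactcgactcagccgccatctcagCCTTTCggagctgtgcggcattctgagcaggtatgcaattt
Snhg12, chr4:132308618-132308717, plus strand: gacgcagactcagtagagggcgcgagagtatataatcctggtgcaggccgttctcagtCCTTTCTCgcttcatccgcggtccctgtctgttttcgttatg
Snhg1, chr19:8723427-8723526, plus strand: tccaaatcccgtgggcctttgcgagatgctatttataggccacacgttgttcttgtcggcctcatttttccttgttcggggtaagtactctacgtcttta
Eif4a1, chr11:69672384-69672483, minus strand: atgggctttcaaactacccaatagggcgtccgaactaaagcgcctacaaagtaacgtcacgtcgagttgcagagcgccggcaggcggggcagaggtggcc
A tract of 6 bases stood at this start of Gas5 and a tract of 8 bases at Snhg12, while none began within 10 bases of the start of Snhg1, of Eif4a1 or of another annotated start of Gas5. By the same rule, 10093 of 32851 promoters in the table (30.7%) held such a tract, and a match is a description of letters only.

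All called box C/D snoRNA genes were higher in KO than in WT: of 39 tested, 4 rose and 0 fell (10.3% called). These were Snord99, Snord111, Snord71 and Snord47, with folds between 1.24 and 1.51. The called box H/ACA snoRNA genes were higher too: of 23 tested, 2 rose and 0 fell (8.70%), Snora30 with a fold of 1.37 and Snora15 with a fold of 1.25. A gene was tested where its mean log2 signal was at least 5.56, the median of all probe sets, and called at an adjusted p under 0.05 in limma with Benjamini-Hochberg adjustment over 11585 genes. Leaving out WT replicate 2 or 3 or KO replicate 2, 3 or 4 left 1 box C/D call, leaving out KO replicate 1 left 2, and leaving out WT replicate 4 gave 6. Leaving out WT replicate 2 or 3 or KO replicate 4 left 1 box H/ACA call. Of all tested genes, 13.0% were called, 4.45% as higher and 8.53% as lower in KO. The 6 called of 62 tested snoRNA genes (9.68%) were thus a smaller share than that of all called genes, and a larger share than that of genes called higher.

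The signs of the differences leaned the same way as the calls. Of the box C/D genes, 33 of 39 (84.6%) had a higher mean in KO, with a median difference of 0.10 log2 and quartiles of 0.05 and 0.19. Of the box H/ACA genes, 20 of 23 (87.0%) had a higher mean in KO, with a median of 0.14 and quartiles of 0.07 and 0.22. Over all tested genes 40.9% had a higher mean in KO and the median difference was -0.03. Genes of 1 sample are measured together and several share a host, so these shares were not tested. Most single differences were within the spread between arrays: the median SD within a genotype was 0.18 for either class, against 0.0975 for all tested genes. At an unadjusted p under 0.05, 10 of 39 box C/D and 6 of 23 box H/ACA genes were higher and 0 of either class were lower. Of all tested genes, 29.2% passed that level, 9.99% as higher and the rest as lower.

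**Figure D1:**
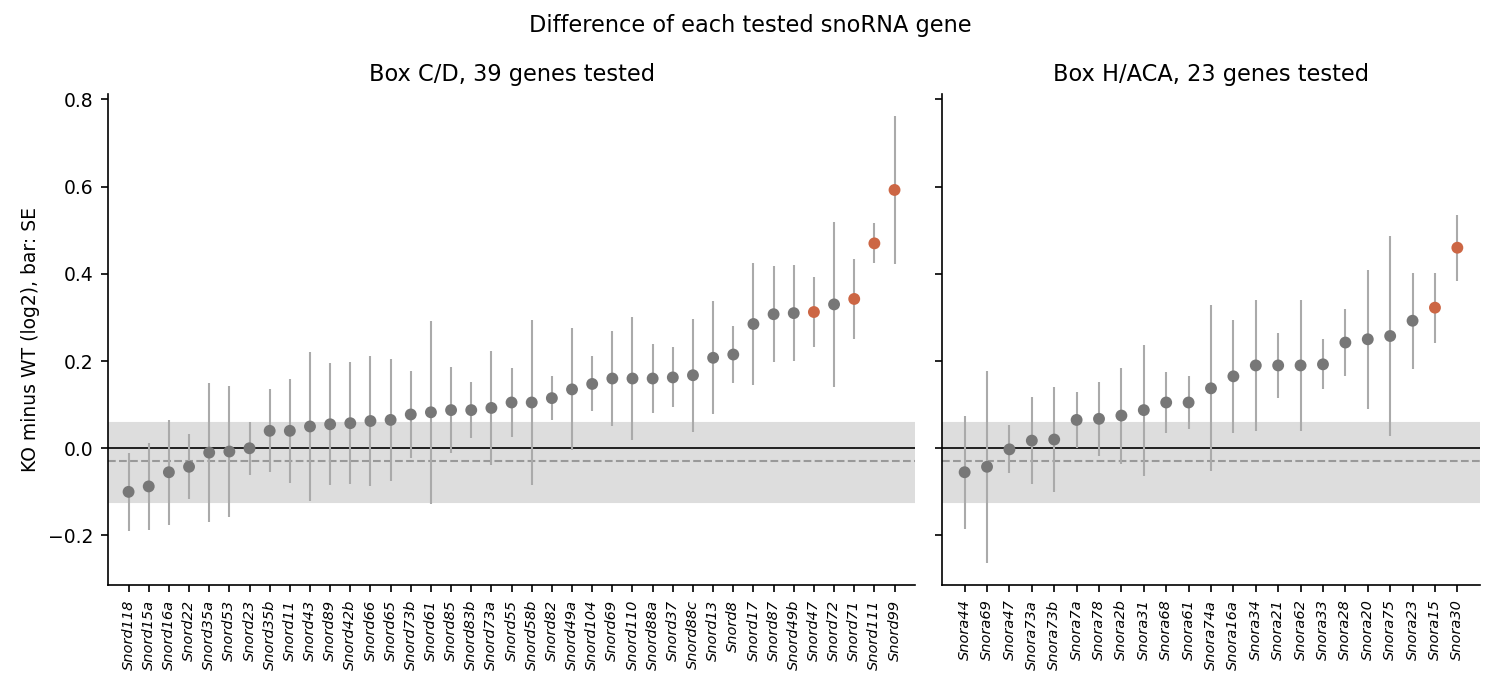
Each point is 1 tested snoRNA gene, with the KO minus WT difference on the log2 scale on the y axis and the SE of the fit (n = 4 per genotype) as a bar; orange points are called, the dashed line and grey band are the median (-0.03) and quartiles (-0.12 and 0.06) of all tested genes. The points run from -0.10 to 0.59 for box C/D and from -0.05 to 0.46 for box H/ACA, and 53 of 62 lie above 0.

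Snord111, a box C/D snoRNA gene of 64 bases, had the smallest adjusted p of all snoRNA genes tested. Its log2 signals were 5.85, 5.86, 5.81 and 5.75 in WT and 6.29, 6.30, 6.25 and 6.31 in KO. Every KO array lay above every WT array, and the arrays of a genotype lay close together (difference 0.47 ± 0.046 SE, fold 1.39, limma, adjusted p = 0.000353). Snord111 lies within the gene of the splicing factor subunit Sf3b3, which had a difference of -0.08 (adjusted p = 0.233) and of 0.06 when all its probe sets were averaged. The mean log2 signal of Snord111 over the 8 arrays was 6.05, not far above the filter of 5.56, and Snord111 was called in every fit that left out an array.

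Snord99 had the largest difference, with WT arrays that lay far apart. Its log2 signals were 8.37, 9.08, 8.87 and 9.37 in WT and 9.50, 9.49, 9.53 and 9.54 in KO. The KO arrays lay above all WT arrays, with an SD of 0.0247 in KO and 0.425 in WT, where replicate 1 was lowest (difference 0.59 ± 0.17 SE, fold 1.51, adjusted p = 0.0496). The call was lost when WT replicate 2 or 3 or any single KO replicate was left out, with adjusted p up to 0.105, and the difference without WT replicate 1 was 0.41 (adjusted p = 0.0383). It was also lost in 6 other fits of all 8 arrays, among them median centring (adjusted p = 0.0583) and the Hspa1a and Hspa1b covariate (adjusted p = 0.112). Without KO replicates 1 and 2 it was lost too (adjusted p = 0.214).

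Snord71 showed a like pattern with WT replicate 1 lowest. Its log2 signals were 8.66, 9.07, 8.98 and 9.09 in WT and 9.29, 9.24, 9.40 and 9.24 in KO. The groups did not overlap (difference 0.34 ± 0.092 SE, fold 1.27, adjusted p = 0.0391). Without WT replicate 2 or 3 or any single KO replicate the call was lost, with adjusted p up to 0.0987. It was also lost in 5 other fits of all 8 arrays, among them median centring (adjusted p = 0.0622) and the Hspa1a and Hspa1b covariate (adjusted p = 0.0827). Without KO replicates 1 and 2 it was lost too (adjusted p = 0.167). Snord71 lies within both the Ap1g1 and the Gm17344 gene span, so no single host was assigned to it.

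Snord47 is one of the snoRNA genes in the introns of Gas5. Its log2 signals were 9.34, 9.43, 9.26 and 9.63 in WT and 9.61, 9.74, 9.81 and 9.75 in KO. The groups overlapped by 1 array on each side, as KO replicate 1 lay just below WT replicate 4 (difference 0.31 ± 0.081 SE, fold 1.24, adjusted p = 0.0351). The call was kept without WT replicate 4 or without KO replicate 1 and was lost without any other single array, with adjusted p up to 0.0888. Median centring also ended it (adjusted p = 0.0512).

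Snora30, of the box H/ACA class, was the clearest of its class. Its log2 signals were 7.66, 7.69, 7.55 and 7.59 in WT and 8.17, 8.06, 7.88 and 8.22 in KO. All KO arrays lay above all WT arrays (difference 0.46 ± 0.076 SE, fold 1.37, adjusted p = 0.00551), and the call was kept without any single array. Its host Srcap, which encodes a chromatin remodelling ATPase, had a difference of 0.02 (adjusted p = 0.864).

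Snora15 had log2 signals of 5.66, 5.60, 5.68 and 5.85 in WT and of 5.91, 6.05, 5.91 and 6.21 in KO. The groups did not overlap, but the lowest KO arrays lay close to WT replicate 4 (difference 0.32 ± 0.080 SE, fold 1.25, adjusted p = 0.0305). The call was lost without WT replicate 1, 2 or 3 or without KO replicate 2 or 4, with adjusted p up to 0.0799, and with the Hspa1a and Hspa1b covariate (adjusted p = 0.0779). Its host Cct6a, a subunit of the CCT chaperonin, had a difference of -0.07 (adjusted p = 0.575).

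**Figure D2:**
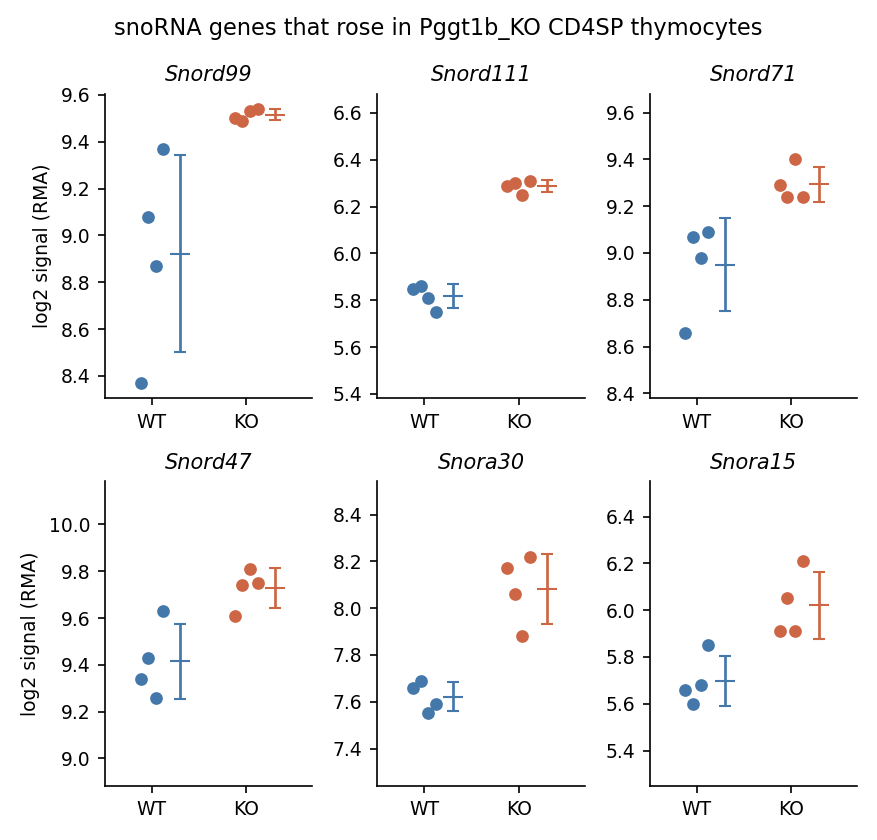
Log2 RMA signal of the 6 called snoRNA genes on each of 4 WT and 4 KO arrays, with the mean and SD beside the points; every panel has its own y axis of log2 signal. The genotypes do not overlap for Snord99, Snord111, Snord71, Snora30 and Snora15 and overlap for Snord47, and the WT points of Snord99 run from 8.37 to 9.37.

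The 4 brightest uncalled snoRNA genes of each class are given next. Snora33, a box H/ACA gene within the ribosomal protein gene Rps12, came closest to the threshold. It had log2 signals of 12.24, 12.32, 12.30 and 12.39 in WT and of 12.58, 12.40, 12.56 and 12.48 in KO. The KO arrays lay just above the WT arrays (difference 0.19 ± 0.057 SE, adjusted p = 0.0534), and Rps12 itself had a difference of 0.01 (adjusted p = 0.941). Snora33 passed the threshold in several other fits, with adjusted p between 0.0114 (intensity trend and robust prior) and 0.0468 (mean log2 signal of at least 6). It did not pass with its 2 probe sets averaged (adjusted p = 0.102), with median centring or without a filter (adjusted p = 0.115 in either). Among the fits that left out 1 array, it passed only without KO replicate 2 (adjusted p = 0.0425).

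The other bright box H/ACA genes overlapped between genotypes. Snora21, in Rpl23, had a difference of 0.19 (adjusted p = 0.131), and 3 of 4 KO arrays lay above all WT arrays. Snora23, in the importin gene Ipo7, had a difference of 0.29 (adjusted p = 0.103), and was called when KO replicate 2 was left out (adjusted p = 0.024). Snora44, in Snhg12, had a difference of -0.05 (adjusted p = 0.828), one of 3 negative values among the tested genes of its class.

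The bright box C/D genes gave similar values. Snord49b had log2 signals of 11.32, 11.67, 11.44 and 11.80 in WT and of 11.82, 11.71, 11.97 and 11.97 in KO, with 3 of 4 KO arrays above all WT arrays (difference 0.31 ± 0.11 SE, adjusted p = 0.0825). It passed the threshold with array weights (adjusted p = 0.0491) and without WT replicate 4 (adjusted p = 0.0349). Snord82, in the nucleolin gene Ncl, had a difference of 0.12 (adjusted p = 0.160). Its KO arrays lay between 11.72 and 11.74 while WT replicate 3 reached 11.73. Snord73b and Snord89 had differences of 0.08 (adjusted p = 0.658) and 0.06 (adjusted p = 0.836), and that of Snord89 was -0.08 with the Hspa1a and Hspa1b covariate.

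Besides the called genes, Snord8 and Snora33 were the only tested snoRNA genes in which all KO arrays lay above all WT arrays. That was so for 4 box C/D and 3 box H/ACA genes in all, beside 6.79% of all tested genes, and no snoRNA gene had all KO arrays below all WT arrays, beside 13.5% of all tested genes. Snord8, named here after its values were seen, had log2 signals of 9.31, 9.21, 9.26 and 9.31 in WT and of 9.41, 9.42, 9.67 and 9.45 in KO (difference 0.21 ± 0.066 SE, adjusted p = 0.0625). The most negative value among tested box C/D genes, also named for its value, was that of Snord118 (-0.10, adjusted p = 0.515), the U8 snoRNA needed for processing of the large-subunit ribosomal RNA.

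The filter on low signals set aside 11 snoRNA genes, 8 box C/D and 3 box H/ACA, with differences between -0.14 and 0.28. Of these, 6 were higher and 5 lower in KO. None was called in a fit of all 22180 genes (limma, smallest adjusted p = 0.21), in which 4.15% of genes were called, 1.64% as higher. In that fit Snord111 and Snora30 were still called, and Snord99, Snord71, Snord47 and Snora15 were not (adjusted p = 0.0786, 0.069, 0.0646 and 0.0559).

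The host genes named for the comparison were not called. Snhg1, Snhg12 and Eif4a1 were tested and 0 of 3 was called in any fit. Gas5 has no probe set with its symbol alone. The probe set used for it is annotated with Gas5 and Mir5117, which the RefSeq table lists as a synonym of Gas5, and it was added to the test after the data were seen.

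Gas5, a noncoding host known to accumulate when growth stops, had log2 signals of 7.49, 7.58, 7.40 and 7.57 in WT and of 7.44, 7.42, 7.76 and 7.53 in KO. The groups overlapped, with KO replicate 3 highest and WT replicate 3 lowest (0.03 ± 0.081 SE, adjusted p = 0.852 over 11586 genes). Within its span, Snord47 was 0.31 higher, as described above. The difference between a snoRNA gene and its host was not tested.

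Snhg12 hosts 4 of the snoRNA genes, of which Snord99 rose and 3 were not called. The host had log2 signals of 7.06, 7.26, 6.96 and 7.14 in WT and of 6.94, 7.09, 7.30 and 7.24 in KO (0.04 ± 0.092 SE, adjusted p = 0.824). Snora16a had 9.78, 9.40, 9.26 and 9.88 in WT and 9.81, 9.80, 9.58 and 9.79 in KO (0.17 ± 0.13 SE, adjusted p = 0.439). Snora61 had 7.37, 7.28, 7.49 and 7.47 in WT and 7.47, 7.56, 7.55 and 7.45 in KO (0.11 ± 0.060 SE, adjusted p = 0.259). Snora44 had 10.26, 9.77, 9.98 and 10.32 in WT and 10.16, 10.18, 9.96 and 9.81 in KO. In these 3 genes the genotypes overlapped, so the snoRNA genes of this host ranged from -0.05 to 0.59 in their differences.

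Snhg1 had log2 signals of 9.25, 9.31, 9.31 and 9.17 in WT and of 9.31, 9.36, 9.38 and 9.27 in KO (0.07 ± 0.052 SE, adjusted p = 0.416). Its single snoRNA gene among the 73 was Snord22, the U22 snoRNA that takes part in processing of the small-subunit ribosomal RNA. Snord22 had 7.10, 7.31, 7.10 and 7.18 in WT and 7.07, 7.19, 7.27 and 6.99 in KO, with overlapping groups (-0.04 ± 0.075 SE, adjusted p = 0.765). Eif4a1, the gene of a translation initiation helicase, had 11.99, 12.39, 12.48 and 12.57 in WT and 12.59, 12.39, 12.42 and 12.45 in KO (0.10 ± 0.11 SE, adjusted p = 0.612). WT replicate 1 was its lowest array, and none of the 73 snoRNA genes lay within its span.

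**Figure D3:**
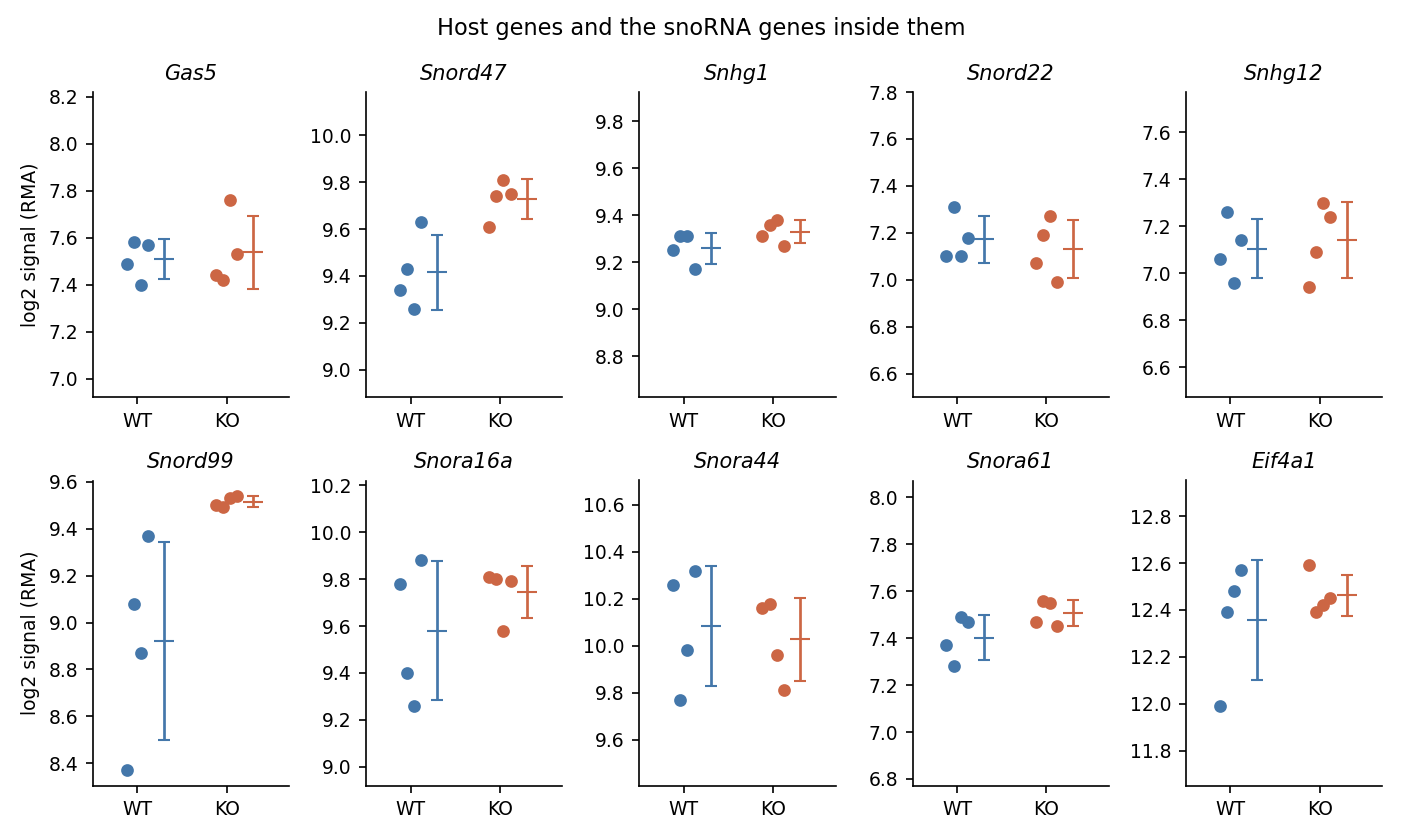
Log2 RMA signal of the 4 host genes and of the snoRNA genes within them on each of 4 WT and 4 KO arrays, with the mean and SD beside the points; every panel has its own y axis of log2 signal. Snord47 and Snord99 were called (0.31 and 0.59 higher in KO) while Gas5 and Snhg12 differed by 0.03 and 0.04. The other snoRNA genes shown, Snora16a (0.17), Snora61 (0.11), Snora44 (-0.05) and Snord22 (-0.04), were not called.

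Hosts were then assigned to all 73 genes by position. RefSeq places 18 within ribosomal protein genes, 16 within noncoding hosts, 30 within other coding genes, 6 within several gene spans and 3 within none. No snoRNA gene in a ribosomal protein gene was called (0 of 18 tested, median 0.08), while 2 of 13 rose in noncoding hosts (median 0.13), 3 of 24 in other coding hosts (median 0.16) and 1 of 4 within several spans. The 0 of 18 stands beside the 4.45% of all tested genes called higher, and whether the host types differ was not tested. The smallest adjusted p in the ribosomal protein group was that of Snora33.

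For 46 pairs, covering 35 hosts, both the snoRNA gene and its host were tested. The median difference was 0.11 for the snoRNA genes and 0.02 for the hosts, and the snoRNA gene had the higher value in 34 pairs. In noncoding hosts the medians were 0.11 and 0.01 over 11 pairs, in other coding hosts 0.16 and 0.00 over 22 pairs, and in ribosomal protein genes 0.08 and 0.05 over 13 pairs. In the last group the snoRNA value was higher in 7 pairs. The only called host was Zbed3, which fell by 0.30 (adjusted p = 0.0406) while its Snora47 had a difference of -0.0041.

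Hosts with more than 1 snoRNA gene gave values that were not always alike. The noncoding gene 2410006H16Rik, with a difference of -0.07, holds Snord49a (0.13), Snord49b (0.31) and Snord65 (0.06). Ncl, with -0.05, holds Snord82 (0.12) and Snora75 (0.26). Snora73a and Snora73b, in Snhg3, both had 0.02. Genes with like names, such as Snora73a with Snora73b or Snord49a with Snord49b, may share probe signal, so their values may not be independent. This was not tested, and their sequences were not compared. The files do not give probe positions here, so mature snoRNA and unspliced host RNA cannot be told apart in these signals.

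**Figure D4:**
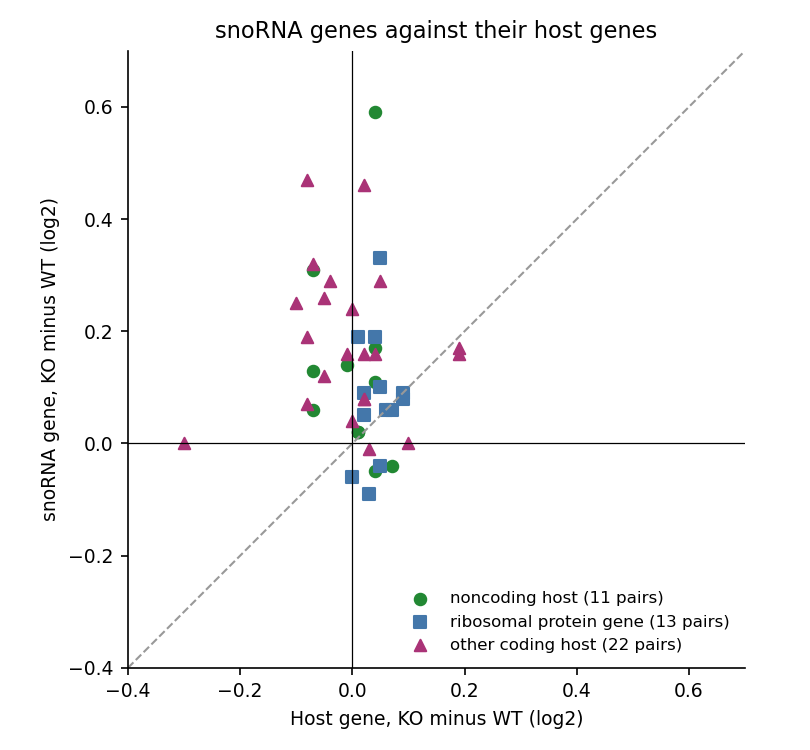
Each point is 1 of 46 pairs of a snoRNA gene and its host gene, with the host's KO minus WT difference on the x axis and the snoRNA gene's on the y axis, both on the log2 scale and without error bars; colours and shapes give the host type and the dashed line is equality. In 34 pairs the point lies above the line, and the lowest host value is that of Zbed3 at -0.30.

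The snoRNA genes varied together by array. For each gene the deviation of an array from the gene's mean over 8 arrays was taken, and the median over a class gives the level of that class on the array. For box C/D genes it was -0.22, 0.04, -0.14 and 0.06 on WT replicates 1 to 4 and 0.06, 0.05, 0.12 and 0.08 on the KO arrays. WT replicates 1 and 3 were low, while WT replicate 4 lay within the KO range and WT replicate 2 just below it, so the genotypes overlapped. For box H/ACA genes the WT medians were -0.11, -0.05, -0.15 and 0.02 and the KO medians 0.13, 0.03, 0.07 and 0.07. Here the lowest KO array, replicate 2, lay just above the highest WT array, replicate 4.

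Over all tested genes the same medians ran only from -0.04 to 0.03, and over the 38 tested hosts from -0.03 to 0.04. The median SD of box C/D genes was 0.21 in WT and 0.13 in KO, and WT was the more variable genotype for 29 of 39 genes. For box H/ACA genes the median SDs were 0.15 and 0.14, and WT was the more variable for 10 of 23 genes. Over all tested genes it was so for 6461 of 11585. WT replicate 1 was the lowest WT array for 20 and WT replicate 3 for 12 of the 39 box C/D genes, and over all tested genes WT replicate 1 was lowest for 3821. Without WT replicate 1, 25 of 39 box C/D genes had a higher mean in KO and the median difference was 0.07. Without WT replicate 3 the count was 28 and the median 0.09. The class median stayed above 0 in every fit run, from 0.07 to 0.17 for box C/D and from 0.10 to 0.18 for box H/ACA.

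With Hspa1a and Hspa1b as a covariate, 3 box C/D genes and 1 box H/ACA gene were called, with class medians of 0.12 and 0.16. Snord111, Snord47 and Snora30 kept their calls there, while Snord99, Snord71 and Snora15 lost theirs. Without KO replicates 1 and 2, where both heat-shock genes were highest, Snord111 kept its call (0.47, adjusted p = 0.0149) and Snora30 did not (0.43, adjusted p = 0.0791). Over all genes, 1503 calls became 874 with the covariate and 258 without these replicates. A lost call therefore cannot be assigned to Hspa1a or Hspa1b.

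**Figure D5:**
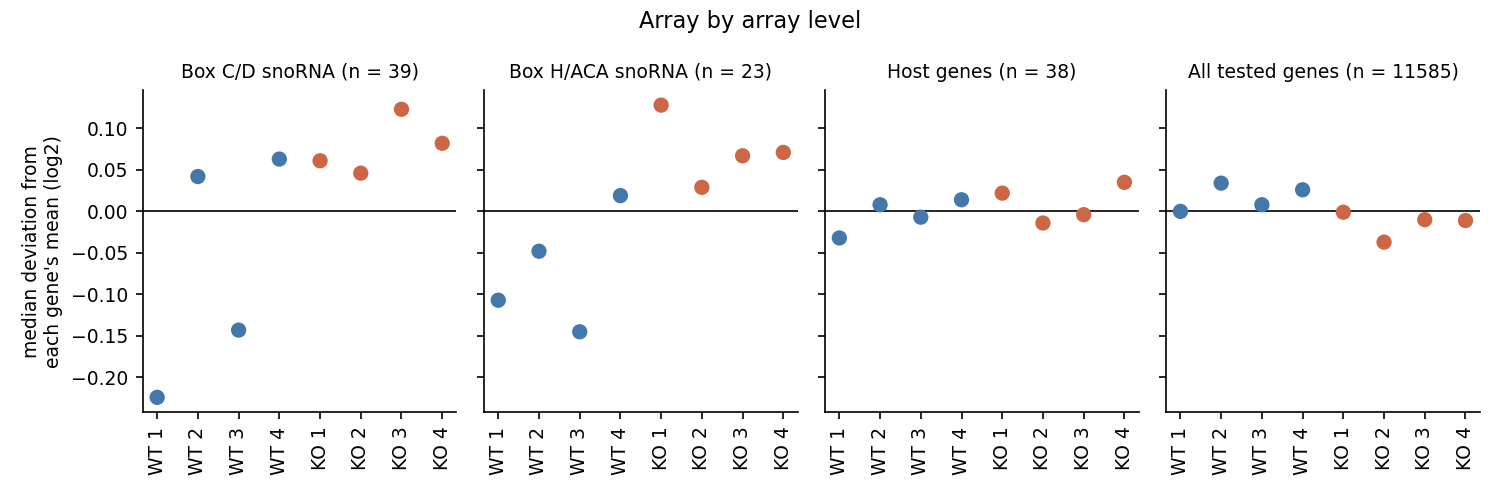
Median over genes of the deviation of each array from the gene's own mean over 8 arrays (y axis, log2) for box C/D genes, box H/ACA genes, tested host genes and all tested genes; each point is 1 array, WT in blue and KO in orange. Box C/D medians on WT replicates 1 and 3 are -0.22 and -0.14, while all other box C/D medians lie between 0.04 and 0.12.

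The proteins that bind and process snoRNAs were taken as lists. Of 4 tested box C/D core protein genes 0 were called (median -0.03, Nop56 0.02 and Nop58 0.0038), and of 6 box H/ACA core protein genes 0 were called (median -0.02). Dkc1, the pseudouridine synthase, had a difference of -0.04 (adjusted p = 0.682) and Gar1 one of -0.17 (adjusted p = 0.293). Nop56 and Nop58 also host box C/D snoRNA genes, Snord110 and Snord11, which had differences of 0.16 and 0.04. Nop58 holds Snord70 as well (0.19), which lay below the filter and was not tested.

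Of 10 genes for snoRNP assembly factors 0 rose and 1 fell, with 9 of 10 lower in KO and a median of -0.10. Ruvbl1, an ATPase of the R2TP chaperone complex, had log2 signals of 8.52, 8.59, 8.62 and 8.78 in WT and of 8.37, 8.39, 8.29 and 8.39 in KO (-0.27 ± 0.062 SE, adjusted p = 0.0226). Its groups did not overlap, and the call was lost without WT replicate 3, KO replicate 1 or KO replicate 3, with adjusted p up to 0.0618. Rpap3, of the same complex, had -0.23 (adjusted p = 0.102). The list's share of falls stands beside 8.53% of all tested genes.

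Among 12 tested genes of snoRNA processing and turnover 1 rose and 1 fell (16.7% called, median -0.06), beside 13.0% of all tested genes. Xrn2, the nuclear 5′ to 3′ exonuclease that trims intron-derived snoRNA ends, was higher by 0.17 ± 0.047 SE (adjusted p = 0.0427), a call lost without any single array other than WT replicate 1. Exosc9, a subunit of the RNA exosome, was lower by 0.26 (-0.26 ± 0.058 SE, adjusted p = 0.0213), a call lost without WT replicate 2, KO replicate 1 or KO replicate 2. Of 7 nonsense-mediated decay genes 0 were called (median 0.00), among them Smg1 with 0.16 (adjusted p = 0.107) and Upf1 with -0.10 (adjusted p = 0.250).

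Further snoRNA hosts, listed whether or not their snoRNA genes were on the array, gave few calls. Of 14 tested noncoding hosts 0 were called (median 0.03), with Snhg20 at 0.16 (adjusted p = 0.134) and Zfas1 at -0.10 (adjusted p = 0.190, and 0.04 when its probe sets were averaged). Of 26 coding hosts 2 rose and 0 fell (7.69%, median 0.01), beside 4.45% of all tested genes called higher. Ppan, a ribosome biogenesis gene, had log2 signals of 10.09, 10.06, 10.09 and 10.12 in WT and of 10.45, 10.36, 10.50 and 10.46 in KO, with no overlap (0.35 ± 0.048 SE, fold 1.28, adjusted p = 0.00205). With its probe sets averaged the difference was 0.18 (adjusted p = 0.0269). Eif4a2, a translation initiation helicase gene, was higher by 0.25 ± 0.063 SE (fold 1.19, adjusted p = 0.0321), a call kept only without WT replicate 1, WT replicate 4 or KO replicate 2 among the fits that left out 1 array.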

How the data were processed

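Signals were measured in 8 samples of CD4SP thymocytes, 1 Affymetrix mouse gene array each. Per the labels' protocols, RNA was purified with a Qiagen micro column kit, amplified with NuGEN WTA Pico and labelled with biotin. How well RNA as short as a snoRNA passes these steps was not tested. The authors deposited log2 values per probe set, which the submitters' processing notes say were made by RMA with Affymetrix Expression Console 1.1. The sources used here name no genome build. Depth does not apply to arrays, and their number limits the precision.

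Genotypes were compared by two-sided tests of limma 3.58.1 (lmFit with eBayes, R 4.3.3) without a covariate, adjusted by Benjamini-Hochberg over 11585 genes, and every adjusted p comes from this fit unless another is named. Log2 differences are KO minus WT. The script was tested on simulated data. snoRNA genes and lists were chosen with earlier results of these data known. Replicates were numbered in the order of deposit. A host is a RefSeq gene (GRCm38.p6) whose span holds the whole snoRNA gene. Strand was to be required, but the table used gives none. The fixed rule named Pggt1b, the 4 host genes and the snoRNA genes in them, called snoRNA genes and their hosts, the 4 brightest uncalled snoRNA genes per class and up to 4 genes per list. Snord8, Snord118 and the genes given as examples of shared hosts or of host pairs were named after their values were seen. Alternatives were other filters, probe set averaging, other scalings, array weights, covariates, another variance prior, stricter thresholds and left-out arrays.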

Additional observations from a re-analysis of the deposited data

Results flagged for a closer look

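In groups of 4 arrays, 16 of 142 groups examined had 1 array far from the others (Dixon's test on the highest or lowest array), where chance flags about 1 in 20 groups. Among snoRNA genes these were Snord82 on WT replicate 3 (11.73, others 11.56 to 11.59), Snora23 on WT replicate 1 (9.66, others 9.91 to 9.93) and Snora16a on KO replicate 3 (9.58, others 9.79 to 9.81). Among other small RNA genes they were Scarna17 on WT replicate 1 (9.99, others 10.83 to 10.93), Terc on KO replicate 2 (12.14, others 12.34 to 12.37), Rnu11 on KO replicate 2 (10.89, others 10.71 to 10.74) and Mir7-1 on KO replicate 4 (7.49, others 7.67 to 7.70).

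Among hosts and protein genes they were Eif4a2 on WT replicate 3 (10.17), Smg6 on WT replicate 1 (9.56, others 9.22 to 9.25), Rrp9 on KO replicate 1 (8.28), Tent4b on KO replicate 1 (9.83), Shq1 on KO replicate 2 (7.34), Smg8 on KO replicate 2 (6.77), Ruvbl1 on KO replicate 3 (8.29), Rpap3 on KO replicate 3 (7.26) and Xrn2 on KO replicate 4 (9.92). All values are log2 signals.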

How the results depend on the processing

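The 4 box C/D calls became 1 without a filter, with all probe sets, with arrays centred on their median, at an adjusted p under 0.01, at a fold of at least 1.5 and without KO replicates 1 and 2, and 2 with the title number as a covariate. Leaving out 1 array gave 1 to 6. The 2 box H/ACA calls became 1 without a filter, with all probe sets, with the Hspa1a and Hspa1b covariate and at an adjusted p under 0.01, 0 at a fold of at least 1.5 and without KO replicates 1 and 2, and 4 with an intensity trend and robust prior. Leaving out 1 array gave 1 to 3. The host genes Snhg1, Snhg12 and Eif4a1 stayed at 0 calls throughout. Gas5 was tested only in the added fit and with all probe sets, and was called in neither. Over all genes, 1503 calls became 920 without a filter, 579 with all probe sets, 874 with the covariate, 446 at an adjusted p under 0.01, 183 at a fold of at least 1.5, and 258 without KO replicates 1 and 2. Leaving out 1 array gave 813 to 1441. Median centring moved the split of calls to 383 higher and 1321 lower, from 515 and 988. Of 1358 single-gene comparisons over 69 genes, 1230 kept their side of the threshold, 113 lost and 12 gained a call, 3 moved and 0 reversed. Among those with no change of call, 40 changed sign, all of genes not called in either fit. Leaving out KO replicates 1 and 2 and adding Gas5 were chosen after seeing the data. No paired analysis was possible because the labels carry no replicate numbers. Weak signals and 4 arrays per genotype limit what differences could be called.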

Other observations

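Other small RNA classes on the same arrays gave the following values. Of 132 tested microRNA genes 6 rose and 1 fell (4.55% rose, beside 4.45% of all tested genes), with a median difference of 0.04 and 78 higher in KO. Mir1190 was higher by 0.31 ± 0.061 SE (limma, adjusted p = 0.0118) and Mir200a by 0.30 ± 0.070 SE (adjusted p = 0.0227, lost without WT replicate 2 or KO replicate 1, up to 0.0585). On the WT arrays the microRNA class medians were lowest on replicates 2 and 4 (-0.10 and -0.07), where the box C/D snoRNA medians were not the lowest. Of 5 Scarna genes, which guide modification of spliceosomal RNA in Cajal bodies, 0 were called (median 0.15, 4 higher in KO), and Scarna2 had a difference of 0.15 (adjusted p = 0.0823) with all KO arrays above all WT arrays. Of 3 Rnu genes 0 were called, and of 5 further small RNA genes, among them Rpph1 (0.10, adjusted p = 0.232) and Terc (0.10, adjusted p = 0.385), 0 were called.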
